A study of Mus musculus with 20 samples.

Results

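The genes described here are the 37 genes of the mouse mitochondrial genome, chosen by symbol: every gene in the count tables whose symbol begins with mt-, which is 37 of 54532 genes. They comprise 13 protein-coding genes, 2 ribosomal RNA (rRNA) genes and 22 transfer RNA (tRNA) genes, 28 annotated on the plus strand and 9 on the minus strand. The study asked how the muscle-enriched microRNA miR-1 bears on growth of the plantaris, a hindlimb plantar flexor made mostly of fast fibres, under mechanical overload (MOV). Male C57BL/6J mice aged 5 months underwent sham surgery or bilateral synergist ablation, which takes away synergist calf muscle and leaves the plantaris to bear the added load. During surgery the left plantaris received 50 µL of a control lentivirus and the right plantaris 50 µL of a lentivirus carrying a miR-1 mimic, and both muscles were collected after 10 days. Each of the 4 groups, named by surgery and virus (MOV mimic, MOV control, sham mimic, sham control), had 5 RNA-seq libraries.

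All groups therefore carried a lentivirus with a CMV promoter and a TurboGFP reporter, and no muscle without virus was sequenced. The virus reached only some of the fibres, and the libraries were made from the muscle as a whole, so that fewer cells of a type and less RNA per cell cannot be told apart. Per the methods, each surgery had its own mice, as many as there are libraries in a group, and each mouse gave a control and a mimic leg. The labels give replicate numbers and do not say which libraries came from one mouse.

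The mitochondrial genome is a small circular DNA that is transcribed from both strands into long precursors. In most of the precursor the tRNAs lie between the other genes, and cutting them out frees the mRNAs and rRNAs. Its mRNAs encode core subunits of respiratory complexes I, III and IV and of ATP synthase, the remaining subunits of which come from nuclear genes. Mature mitochondrial mRNAs mostly carry short poly(A) tails, as do the 2 rRNAs, and in skeletal muscle they are among the most abundant transcripts.

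Neighbouring genes overlap in 9 places, of which 4 join protein-coding genes, and reads there cannot be assigned to a gene with certainty. Of these 4, mt-Atp6 and mt-Co3 share 1 base, at 8607, and the other 3 share more. Coordinates are those of NCBIM37, on which all 37 genes have the same positions as in GRCm38.p6, in a mitochondrial genome of 16299 bases. These 3 longer overlaps are shown from the plus strand with the shared bases in capitals. The first is chrM:7897-7999, where mt-Atp8 and mt-Atp6 share 43 bases, the second is chrM:10137-10203, where mt-Nd4l and mt-Nd4 share 7 bases, and the third is chrM:13522-13595, where mt-Nd5 and the minus-strand gene mt-Nd6 share 14 bases.
mt-Atp8 end with mt-Atp6 start: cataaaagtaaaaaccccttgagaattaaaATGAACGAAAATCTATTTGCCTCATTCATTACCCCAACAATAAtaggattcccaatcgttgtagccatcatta
mt-Nd4l end with mt-Nd4 start: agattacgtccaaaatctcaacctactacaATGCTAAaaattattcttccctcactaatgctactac
mt-Nd5 end with mt-Nd6 end: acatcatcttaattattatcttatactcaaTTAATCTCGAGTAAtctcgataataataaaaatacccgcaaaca

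A long stretch of the mitochondrial genome is also present in the nuclear genome, which bears on which members can be counted at all. Bases 6390 to 11042 of the mitochondrial genome aligned to chr1:24618374-24623027 of NCBIM37 over 4654 columns at 99.9% identity, with 2 mismatches and 1 gap. The longest exact run was 3067 bases, from 6394 to 9460. The mismatches, counted from base 1 of the mitochondrial genome and written with the mitochondrial base first, were A6393T in mt-Co1 and T9461C in mt-Nd3, and the gap lay in mt-Tr. The first 100 bases of mt-Co2 (chrM:7013-7112, plus strand) stand for the part found base for base on chromosome 1. The mt-Nd3 stretch (chrM:9431-9491, plus strand) and its copy (chr1:24619926-24619986, minus strand) show the only difference within that gene, in capitals.
mt-Co2: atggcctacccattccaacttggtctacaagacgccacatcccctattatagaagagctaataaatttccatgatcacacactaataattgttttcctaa
mt-Nd3: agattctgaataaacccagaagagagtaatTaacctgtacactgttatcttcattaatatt
chromosome 1 copy of mt-Nd3: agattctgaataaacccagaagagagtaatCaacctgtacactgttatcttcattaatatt

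Among the tRNA genes, mt-Tp and mt-Tc (for proline and cysteine, both on the minus strand) had the most counts, and mt-Tf and mt-Td (for phenylalanine and aspartate, both on the plus strand) had none in any library. Their sequences are shown to contrast the best and least counted tRNAs, at chrM:15356-15422, chrM:5192-5257, chrM:1-68 and chrM:6942-7011, each 5′ to 3′ on its own strand.
mt-Tp: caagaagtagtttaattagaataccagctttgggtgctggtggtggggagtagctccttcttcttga
mt-Tc: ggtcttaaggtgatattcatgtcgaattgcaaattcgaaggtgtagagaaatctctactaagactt
mt-Tf: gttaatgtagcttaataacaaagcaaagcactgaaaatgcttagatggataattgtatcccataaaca
mt-Td: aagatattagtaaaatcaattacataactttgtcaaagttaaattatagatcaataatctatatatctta

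Library totals were between 12036360 and 23056525 counts, with a median of 16940547.5. All 13 fast fibre markers were detected, at a summed 85182 to 225712 TMM CPM (counts relative to library size after edgeR's TMM scaling) per library, and the 20 leukocyte markers summed to between 261 and 1100.4. The libraries that stood apart from their groups in what follows were MOV mimic 5 in the mitochondrial mRNAs and rRNAs, MOV control 5 in the rRNAs and mt-Nd4, and sham mimic 5 in the rRNAs. MOV control 3, MOV control 4 and sham mimic 1 each did so in 1 measure only (mt-Co3, the tRNA share and mt-Co2).

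Levels of the members are compared per kilobase of gene, as median TMM CPM per kb over the 20 libraries. The protein-coding genes fell into a high and a low set. mt-Co1, the catalytic subunit of cytochrome c oxidase (complex IV), was at 18579 CPM per kb. It was followed by mt-Cytb (cytochrome b of complex III) at 13109 and by mt-Nd1 at 11172, with mt-Nd6 at 6618, mt-Nd2 at 6486, mt-Nd4 at 6120 and mt-Nd5 at 3804, all subunits of complex I. The order of mt-Nd6, mt-Nd2 and mt-Nd4 in these pooled medians is not firm, since within each of the 4 groups the median of mt-Nd2 was above that of mt-Nd6 (10651 and 8480 CPM per kb in sham control, 5138 and 5087 in MOV control), and in sham mimic mt-Nd4 was above mt-Nd6. The other 6 were far lower, with mt-Co2 at 361 and mt-Co3 at 261 (both of complex IV), mt-Atp6 at 155 and mt-Atp8 at 2.32 (both of ATP synthase), and mt-Nd3 at 128 and mt-Nd4l at 54.9 (both of complex I). The sets did not overlap in any library for mt-Co1 and mt-Co2, which had 20207 to 62155 CPM and 165 to 498 CPM.

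The low set was the set with nuclear copies. Of the 100-base windows of each of the 6 low genes, 98.8% to 100% occurred exactly in the nuclear genome, against 0% to 60.8% in the 7 high genes, of which mt-Nd4 (60.8%) and mt-Co1 (30.8%) had the most. The levels of mt-Co2, mt-Atp8, mt-Atp6, mt-Co3, mt-Nd3 and mt-Nd4l are therefore reported as uncertain, since how the authors' counting treated reads with several alignments is not given in the sources used here. Among the tRNA genes, mt-Tw, mt-Tn, mt-Ty, mt-Tg, mt-Th and mt-Te had exact nuclear copies of 100% of their 50-base windows. So had mt-Ts1, mt-Td and mt-Tk. Their levels are uncertain for the same reason. The part of such reads in any of these mRNA and tRNA levels was not tested. Reads were also assigned to the nuclear copy of mt-Nd4l: the gene Gm10222, annotated at chr1:24619243-24619539 on the minus strand (NCBIM37), had 52 to 274 counts per library (median 156.5), while mt-Nd4l had 145 to 1019 (median 299.5) and was higher in 20 of 20 libraries.

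**Figure D1:**
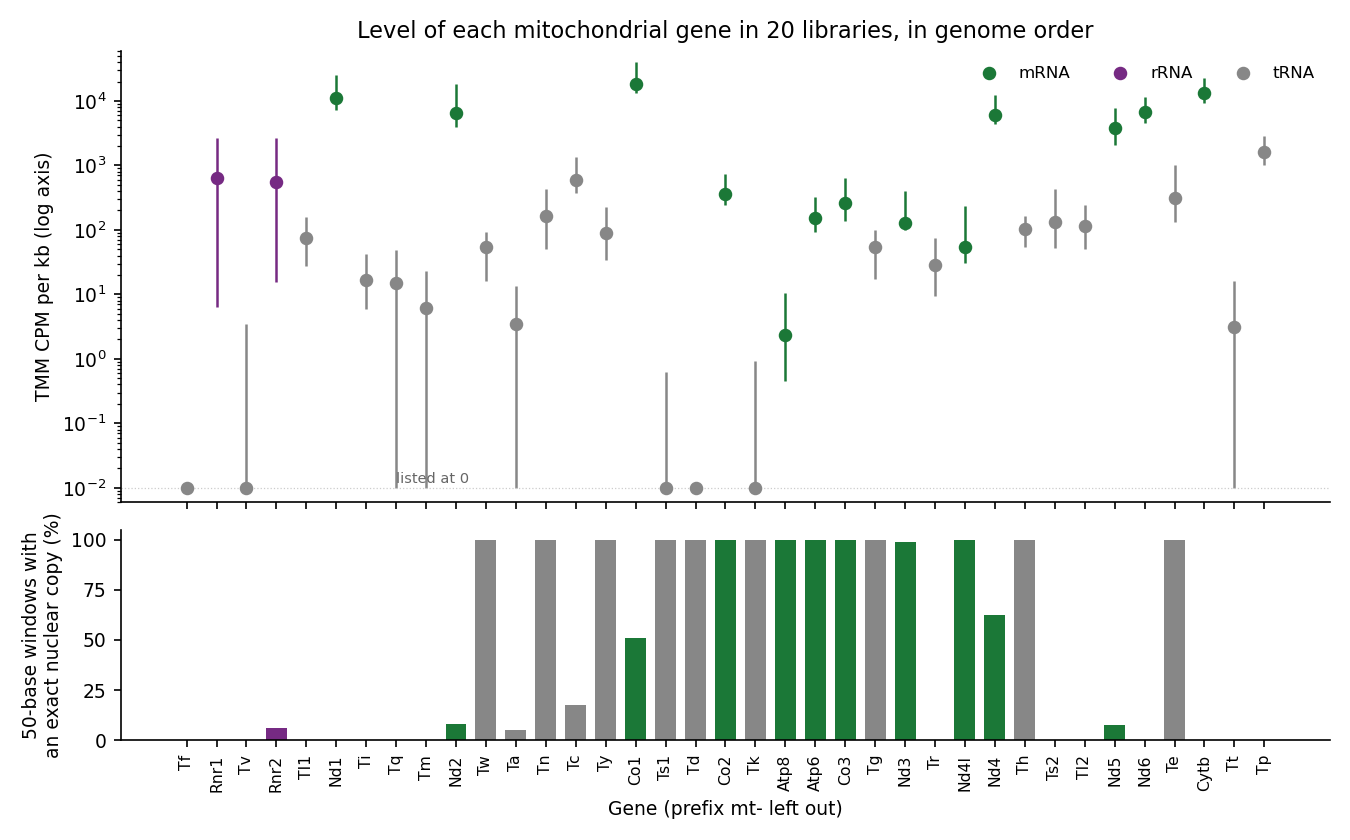
Upper panel, TMM CPM per kb (log axis) of the 37 genes in genome order, with the median as a point and the lowest to highest of 20 libraries as a line, coloured by class. Lower panel, percent of each gene's 50-base windows with an exact copy in the nuclear genome. The 6 low mRNAs, from Co2 to Nd4l, sit where the lower panel is at or near 100%, and mt-Tf and mt-Td lie on the line for genes listed at 0.

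The rRNAs mt-Rnr1 (12S) and mt-Rnr2 (16S) had medians of 630 and 547 CPM per kb, but with a range over libraries described below. These pooled medians describe no single group, and the order is not firm. In sham control the medians were 2039 and 1942 CPM per kb, and in MOV control 11.2 and 17.7. Of the tRNAs, mt-Tp stood at 1599 and mt-Tc at 597, followed by mt-Te (glutamate) at 317, mt-Tn (asparagine) at 162 and mt-Ts2 (serine) at 133. The order of the last 3 differed between groups: sham control had medians of 627, 182 and 80.5 CPM per kb for mt-Te, mt-Tn and mt-Ts2, and MOV mimic had 178, 94.8 and 232. At the lower end, 4 of 22 tRNA genes had fewer than 3 counts in every library, including mt-Tf and mt-Td without any. Of these 4, mt-Td, mt-Ts1 and mt-Tk have exact nuclear copies, and mt-Tf has not. A count of 0 in one library allows a level of up to 0.130 to 0.233 TMM CPM (3 counts), which covers counting error only. tRNAs are short, folded and heavily modified, and the tRNA values describe the fragments counted in these libraries, not tRNA abundance.

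By class, the mRNAs held 94.3% to 99.7% of the counts on the mitochondrial genome (median 98.1%), the rRNAs 0.0481% to 5.48% and the tRNAs 0.223% to 0.415%. By strand, minus-strand genes held 3.05% to 4.84%, nearly all of it from mt-Nd6, the only minus-strand mRNA, which made up 2.96% to 4.80% of mRNA counts. Among tRNA counts the order was turned around, with 82.2% to 89.3% from the minus-strand tRNAs in sham libraries and 72.1% to 85.9% in MOV libraries. With the mimic the surgeries did not overlap in this percentage (83.7% to 89.3% after sham and 75.3% to 81.5% after MOV), and with the control virus only MOV control 5, at 85.9%, reached the sham range. This percentage was not tested. Whether counting used strand is not given in the sources used here, so reads from the 14 bases shared by mt-Nd5 and mt-Nd6, and antisense reads elsewhere, could not be assigned to a strand with certainty.

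The share of all counts on the 37 genes was the first measure compared between groups. In sham control it was 11.9%, 11.5%, 7.89%, 8.25% and 11.7% in libraries 1 to 5 (mean 10.2% ± 2.00, SD, n = 5). In MOV control it was 6.76%, 7.88%, 7.07%, 5.42% and 7.39% (6.91% ± 0.926, SD, n = 5). The MOV control values were below the sham control values, although the nearest, 7.88% and 7.89%, were almost equal. The share was lower after MOV by a difference of -3.34 percentage points, a ratio of 0.674 (two-sided exact permutation test, p = 0.00794, the smallest that 252 splits allow, adjusted p = 0.0397 over 5 comparisons).

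With the mRNAs alone the difference was -2.98 points and its adjusted p over the same 5 comparisons was 0.0794 (exact permutation test), and 1 sham control library was then below the highest MOV control library. The call was also lost on leaving out any 1 of the 5 MOV control libraries, with 4 against 5 libraries in the exact test (adjusted p 0.0794 to 0.0992). The 95% Wilson interval of a library's share covers counting error only, not the spread between libraries. It was at most 0.0168 points on either side, which is small beside the difference of the means but not beside the gap between the groups. The intervals of sham control 3 (7.88% to 7.90%) and MOV control 2 (7.87% to 7.89%) overlapped, so the absence of overlap, on which the p of 0.00794 rests, was not resolved at this depth.

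In the mimic legs the share was 13.5%, 10.6%, 13.1%, 11.0% and 10.2% after sham surgery (11.7% ± 1.49, SD, n = 5). After MOV it was 7.96%, 8.61%, 7.08%, 8.27% and 13.7% (9.12% ± 2.61, SD, n = 5). MOV mimic 1 to 4 lay below every sham mimic library, and MOV mimic 5 lay above all of them. The difference of -2.56 points did not pass the test with all libraries (exact permutation p = 0.119, adjusted p = 0.198), and without MOV mimic 5 it was -3.70 points (exact permutation p = 0.00794, adjusted p = 0.0198).

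The mimic itself was compared with the control virus within each surgery, and these comparisons use the same libraries as those above. After MOV the share was higher in mimic by 2.21 points (exact permutation p = 0.0317, adjusted p = 0.0794), which did not pass after adjustment. Without MOV mimic 5 the difference was 1.07 points, and without MOV mimic 3, the lowest of its group, it was 2.72 points with an adjusted p of 0.0198 (exact permutation test). After sham surgery mimic was higher by 1.43 points (exact permutation p = 0.230, adjusted p = 0.288), and by 0.843 to 1.85 points on leaving out 1 library. The difference between these 2 mimic effects was 0.778 points (exact permutation p = 0.635), computed over mimic minus control differences of equal replicate number, and it was -0.239 without the MOV libraries numbered 5.

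**Figure D2:**
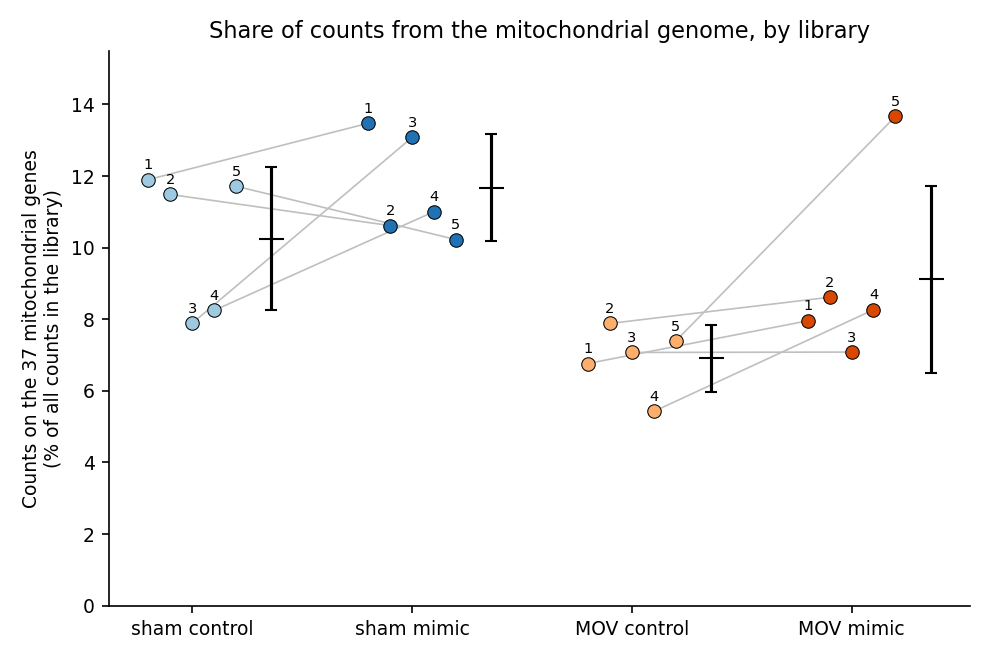
Percent of each library's counts on the 37 mitochondrial genes, by group (n = 5 each). Points are libraries with their replicate number, grey lines join equal numbers within a surgery, and the bar beside each group is the mean ± SD. MOV control lies at 5.42% to 7.88%, below sham control at 7.89% to 11.9%, and MOV mimic 5 stands at 13.7%.

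Within sham control, markers of several cell types differed along with the share. The 2 libraries with the lowest share there, sham control 3 and 4, had the highest summed fibroblast and matrix markers of their group, 14595 and 13060 CPM, against 1302, 6195 and 9751 in the other libraries. In MOV control the same 8 markers, none of them at 0, summed to 14609, 17031, 14922, 6259 and 4609 CPM, and the lowest mitochondrial share belonged to MOV control 4, which had one of the lower marker sums. In sham control 1 to 5 the fast fibre markers summed to 225712, 181304, 144213, 146847 and 153971 CPM and the erythroid markers to 92.9, 76.3, 32.7, 49.2 and 64.1, both lowest in libraries 3 and 4. Adipocyte markers, at 189, 215, 137, 147 and 214 CPM, were also lowest there. The other lists did not follow the share in this way, since leukocyte markers summed to 261, 633, 830, 1091 and 937 CPM, and endothelial markers to 334, 302, 283, 320 and 259. The 13 fast fibre markers summed to 111920 to 190928 CPM in MOV control. Erythroid markers summed to 12.2 to 54.0 CPM in MOV control and 32.7 to 92.9 in sham control, endothelial markers to 148 to 299 and 259 to 334, and adipocyte markers to 87.6 to 178 and 137 to 215. With the mimic, endothelial markers summed to 219 to 252 CPM after MOV and 292 to 390 after sham, without overlap. Adipocyte markers summed to 98.8 to 140 and 156 to 183, also without overlap. The fast fibre, leukocyte, fibroblast and erythroid sums overlapped between these mimic groups. In sham mimic the picture was mixed. Sham mimic 1, with the highest share (13.5%), had the lowest fibroblast sum of its group (1936 CPM) and the highest fast fibre (224242) and erythroid (91.1) sums. Sham mimic 3, with a share of 13.1%, had the highest fibroblast sum of its group (13576 CPM) and the lowest fast fibre (136982) and erythroid (26.3) sums. The part of cell composition in the mitochondrial share was not tested.

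Gene by gene, the mRNAs that passed the filter on low counts in MOV control against sham control numbered 12 of 13, all but mt-Atp8. Each of the 12 had a negative log2 fold change, with a median of -0.73 and a range of -0.94 to -0.15, beside a median of 0.04 over all 14974 genes tested. None passed edgeR's quasi-likelihood test at an adjusted p of 0.05, where the background was 1 of 14974 genes (0.00668%, Nos1). At an unadjusted p under 0.05 they numbered 11 of 12, and 20 of the 28 members tested of all classes, beside 18.2% of all genes. DESeq2 called 9 members lower, of which 7 were mRNAs and 2 tRNAs, against a background of 3.48% of genes called lower. edgeR's calls turned on single libraries: without sham control 3, mt-Atp6, mt-Nd2, mt-Nd5, mt-Tc, mt-Tl1 and mt-Ty were called lower, and without MOV control 5, mt-Atp6, mt-Nd5, mt-Te, mt-Ty and both rRNAs were called lower and mt-Ts2 higher. In these fits 1.66% of all genes were called lower without sham control 3, and 1.35% lower and 0.725% higher without MOV control 5.

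Among complex I subunits, mt-Nd5, a proton-pumping membrane subunit, was at 12334, 9189, 6569, 7310 and 9514 CPM in sham control. In MOV control it was at 3945, 5246, 4669, 3844 and 6035 CPM, below every sham control library. Its log2 fold change was -0.91 (SE 0.22, edgeR adjusted p = 0.0672, DESeq2 adjusted p = 0.000605).

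mt-Nd2, another pumping subunit, had the most negative fold change of the mRNAs, -0.94 (SE 0.26, edgeR adjusted p = 0.0935, DESeq2 adjusted p = 0.00536). It was at 15010.2, 11953, 6228, 6793 and 11056 CPM in sham control and at 4698, 5670.1, 5333, 4060 and 6673 CPM in MOV control. Here the groups overlapped, since MOV control 5 was above sham control 3.

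mt-Nd6, transcribed from the other strand, followed the plus-strand subunits. Its level was 5469, 4401, 3542, 3328 and 4525 CPM in sham control and 2496, 2670.5, 2640.2, 2399 and 3232 CPM in MOV control, with no overlap. The log2 fold change was -0.66 (SE 0.18, edgeR adjusted p = 0.0901, DESeq2 adjusted p = 0.00285). mt-Nd1, which lies near the quinone site, had -0.68 (SE 0.25) and was called by DESeq2, while mt-Nd4 had -0.59 and was called by neither tool. The short subunits mt-Nd4l and mt-Nd3 had -0.72 and -0.15, the latter being the value nearest 0 among the mRNAs.

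For complexes III and IV, mt-Co1 was at 53159, 45425, 27030.1, 28386 and 45462 CPM in sham control. In MOV control it was at 22684, 27367, 24518, 20207 and 24904 CPM, so that only MOV control 2 exceeded the lowest sham control library. Its log2 fold change was -0.73 (SE 0.24, edgeR adjusted p = 0.144, DESeq2 adjusted p = 0.0096). mt-Co2 (-0.77) was called by DESeq2 and mt-Co3 (-0.73) and mt-Cytb (-0.57) were not.

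Of the ATP synthase subunits, mt-Atp6, part of the proton channel, was at 158, 165, 87.3, 121 and 137 CPM in sham control and at 76.1, 64.0, 76.5, 70.4 and 70.5 CPM in MOV control. The groups did not overlap, and the log2 fold change of -0.90 (SE 0.16) had the lowest edgeR adjusted p of the members, 0.0551, with a DESeq2 adjusted p of 0.000103. This gene is one of those with a nuclear copy. In all, 3 of the 12 mRNAs tested, mt-Atp6, mt-Nd5 and mt-Nd6, had no overlap between MOV control and sham control, with 2.45% of all genes tested not overlapping in that direction and 2.45% in the other, where no member was found.

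In MOV mimic against sham mimic 13 of 13 mRNAs passed the filter and 12 had a negative log2 fold change, with a median of -0.57 and a range of -1.09 (mt-Atp8) to 0.37 (mt-Nd3), beside 0.02 over all 14918 genes tested. edgeR called 0 of the 29 members tested and 0% of all genes, and 12 members had an unadjusted p under 0.05, beside 13.4% of all genes. DESeq2 called 4 lower, mt-Nd5, mt-Rnr1, mt-Rnr2 and mt-Ty, against a background of 0.637% called lower. mt-Nd5 was at 13984, 10157, 9282, 9745 and 8309 CPM in sham mimic and at 5053, 5428, 5427, 4983 and 8866 CPM in MOV mimic (log2 fold change -0.78, SE 0.22, edgeR adjusted p = 0.272, DESeq2 adjusted p = 0.0191). Only MOV mimic 5 reached the sham mimic range, and no mRNA was free of overlap in this comparison, where 1.74% of all genes did not overlap in the lower and 0.992% in the higher direction.

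**Figure D3:**
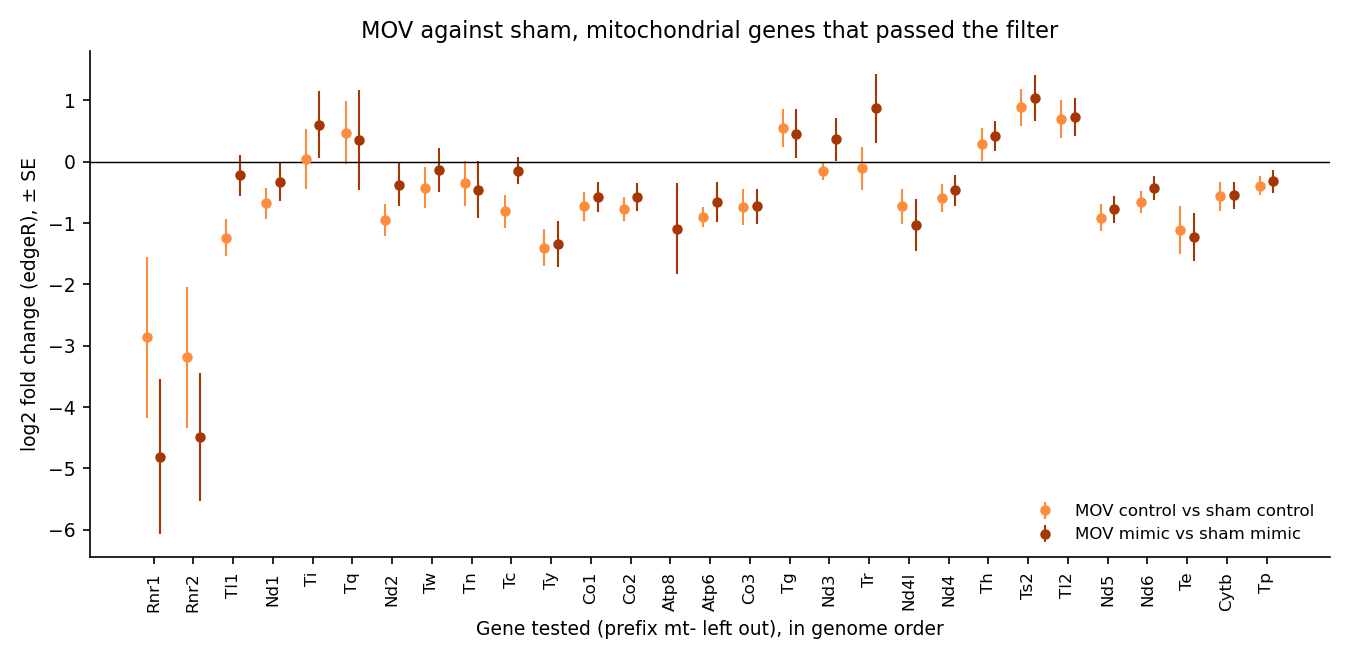
log2 fold change (edgeR, ± SE) of MOV against sham for each mitochondrial gene that passed the filter, in genome order, with control virus in light and mimic in dark orange (5 libraries a group). The mRNAs lie below 0 apart from Nd3 with the mimic, both rRNAs lie lowest with the widest errors, and Ts2, Tl2 and Tg lie above 0 in both comparisons.

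Between mimic and control virus no member was called by edgeR or DESeq2 in either surgery, in the fits without a replicate block. With the block, DESeq2 called 127 of 15220 genes after MOV, and members among them are not listed here. After MOV all 12 mRNAs tested had a positive log2 fold change, with a median of 0.38 and a range of 0.07 (mt-Co2) to 0.81 (mt-Nd3), beside -0.01 over all genes. edgeR called 0 of 15220 genes (0%) and DESeq2 3 (0.0197%), and 5 of 28 members had an unadjusted edgeR p under 0.05, beside 4.21% of all genes. No member was without overlap between these groups, beside 0.315% of genes in the higher and 0.447% in the lower direction. Leaving out 1 library at a time gave medians of 0.14 to 0.45.

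MOV mimic 5 was the highest library of its group for most mRNAs. mt-Nd2 was at 6333, 6609, 6409, 6142 and 19319.6 CPM in MOV mimic, and mt-Nd1 at 10240.0, 9422, 9623, 9291 and 23967 CPM. In that library the excess was uneven among the genes, with 218 mt-Nd2 counts and 270.3 mt-Nd1 counts per 100 mt-Nd5 counts, where the other 19 libraries had 90.02 to 133 and 125 to 210.2.

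After sham surgery 12 of 13 mRNAs had a positive log2 fold change in mimic, with a median of 0.21 and a range of -0.13 (mt-Co2) to 0.62 (mt-Atp8), beside 0.00 over all genes. The median was 0.08 to 0.34 on leaving out 1 library at a time. edgeR and DESeq2 each called 0 of 14746 genes (0%), and of the 30 members tested 1, mt-Tp (0.51, SE 0.17), had an unadjusted edgeR p under 0.05, beside 1.72% of all genes. No member was without overlap, beside 0.142% of genes in the higher and 0.197% in the lower direction. For the interaction of surgery and virus edgeR called 0 of 16166 genes (0%) and DESeq2 1 (0.00619%), none of them a member, with 1 of 30 members at an unadjusted p under 0.05 in edgeR, beside 2.64% of all genes. The mRNA median was 0.15.

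The rRNAs, the structural RNAs of the mitochondrial ribosome, lay at separate levels. Per 1000 mRNA counts, sham control libraries had 36.8, 40.9, 33.6, 32.2 and 58.1 rRNA counts, and sham mimic libraries had 34.6, 29.7, 37.1, 38.8 and 0.721. MOV control libraries had 0.588, 0.525, 0.629, 0.698 and 32.1, and MOV mimic libraries had 0.518, 0.588, 0.482, 0.693 and 3.99. Thus 9 of 10 sham libraries stood near one level and 8 of 10 MOV libraries at one far lower. Sham mimic 5 had the MOV level, MOV control 5 the sham level, and MOV mimic 5 a value between them. In the share of all 37 genes sham mimic 5 (10.2%) was the lowest of its group and MOV control 5 (7.39%) was within its own, and whether any label was exchanged was not tested.

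mt-Rnr2 was at 3342, 3072, 1442, 1475 and 4204 CPM in sham control and at 24.2, 28, 31.1, 26.8 and 1376 CPM in MOV control. The log2 fold change was -3.19 (SE 1.15, edgeR adjusted p = 0.166), and mt-Rnr1 had -2.86 (SE 1.31, edgeR adjusted p = 0.271). Without MOV control 5 they had -6.61 (edgeR adjusted p = 3.83e-06) and -7.43 (edgeR adjusted p = 7.01e-07). In MOV mimic against sham mimic the values were -4.49 (SE 1.04, edgeR adjusted p = 0.267) and -4.81 (SE 1.27, edgeR adjusted p = 0.267). DESeq2 called both in the mimic comparison, with adjusted p of 0.00706 for mt-Rnr2 and 0.00774 for mt-Rnr1.

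The rRNA share of all counts was 0.0491% in MOV control and 0.405% in sham control, without overlap (exact permutation p = 0.00794, adjusted p = 0.0556 over 28 tests of classes, strands and ratios, none of which passed). Without MOV control 5 the MOV control mean was 0.00407%. With the mimic the shares were 0.0145% after MOV and 0.328% after sham (exact permutation p = 0.0159, adjusted p = 0.0556), and without sham mimic 5 and MOV mimic 5 they were 0.00456% and 0.408%.

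Of 10051 genes compared by their correlation with the rRNAs over the 20 libraries, ENSMUSG00000106106, mmu-mir-689-2, Lars2 and mmu-mir-2134-4 were the most alike in pattern, and were picked after their values were seen. The libraries lie in separate clusters, so no coefficient is given. The first of these, for which no symbol was found, had 114883 to 186302 counts in the 9 sham libraries with high rRNA, and 3510 in sham mimic 5. In MOV libraries it had 2387 to 4543 counts in the 8 with low rRNA, 64050 in MOV control 5 and 17148 in MOV mimic 5. How libraries were depleted of rRNA or selected for poly(A) is not given in the sources used here, and the part of library preparation in the rRNA difference was not tested.

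**Figure D4:**
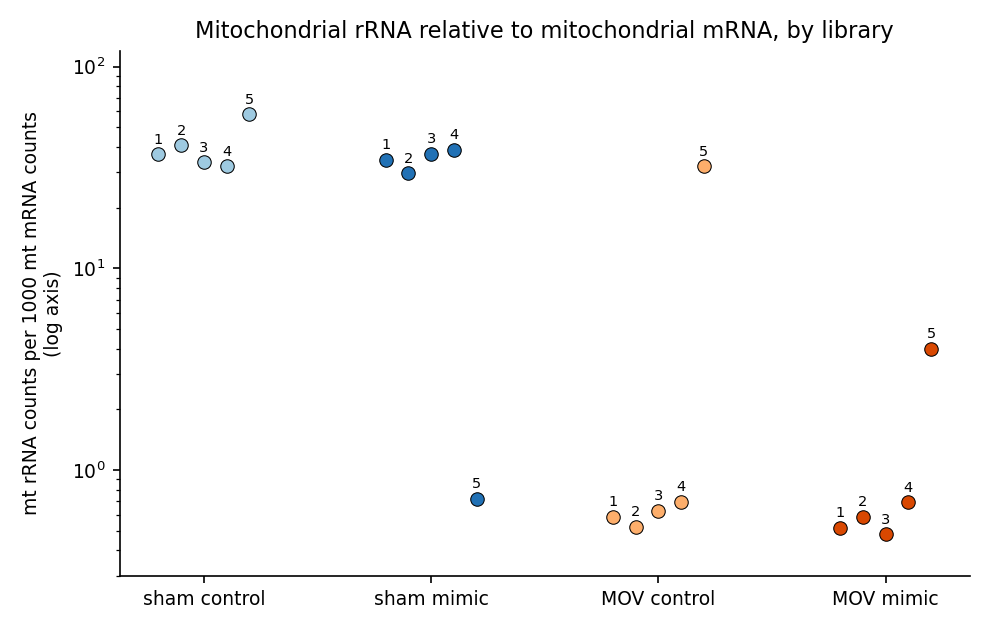
Mitochondrial rRNA counts per 1000 mitochondrial mRNA counts (log axis) in each library, by group, with replicate numbers. Sham libraries lie at 29.7 to 58.1 except sham mimic 5 at 0.721, and MOV libraries at 0.482 to 0.698 except MOV control 5 at 32.1 and MOV mimic 5 at 3.99.

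Of the 22 tRNA genes, 15 passed the filter in at least 1 comparison and 7 (mt-Tf, mt-Tv, mt-Ta, mt-Ts1, mt-Td, mt-Tk and mt-Tt) in none. In MOV control against sham control 14 were tested, 8 with a negative and 6 with a positive log2 fold change (median -0.23). mt-Ty, for tyrosine, was at 15.3, 7.89, 6.38, 8.57 and 9.34 CPM in sham control and at 2.88, 4.36, 2.29, 2.80 and 5.51 CPM in MOV control, with no overlap. Its log2 fold change was -1.40 (SE 0.30, edgeR adjusted p = 0.0556, DESeq2 adjusted p = 0.000832). It was -1.34 (SE 0.37, edgeR adjusted p = 0.272, DESeq2 adjusted p = 0.0404) in the mimic comparison. mt-Ty is one of the tRNA genes with exact nuclear copies, and its level is uncertain.

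mt-Tl1, a leucine tRNA next to mt-Rnr2, had -1.24 (SE 0.31, edgeR adjusted p = 0.0714, DESeq2 adjusted p = 0.00489) with the control virus and -0.22 with the mimic. mt-Te had -1.12 and -1.23, and mt-Tc had -0.81 and -0.14. In the other direction, the neighbouring genes mt-Ts2 and mt-Tl2 (serine and leucine) had 0.88 and 0.70 with the control virus and 1.05 and 0.73 with the mimic, without a call by either tool over all libraries. Without MOV control 5, mt-Ts2 had 1.07 (edgeR adjusted p = 0.0489) with the control virus. The remaining tRNAs tested with the control virus were mt-Tw (-0.42), mt-Tp (-0.39), mt-Tn (-0.35), mt-Tr (-0.11), mt-Ti (0.05), mt-Th (0.28), mt-Tq (0.47) and mt-Tg (0.55). Leaving out 1 library gave -0.54 to -0.23 for mt-Tw, -0.72 to -0.04 for mt-Tn and -0.46 to -0.01 for mt-Tr. It gave 0.15 to 0.44 for mt-Th and -0.18 to 0.42 for mt-Ti, and mt-Tq went down to 0.00. The values of these tRNAs are therefore not firm. mt-Tm, for methionine, passed the filter in sham mimic against sham control, with 0.23, and in the interaction.

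Summed by strand, minus-strand genes held 0.298% of all counts in MOV control and 0.415% in sham control, and with the mimic 0.381% after MOV and 0.444% after sham surgery. MOV control did not overlap sham control (exact permutation p = 0.00794) or MOV mimic (exact permutation p = 0.00794), and each had an adjusted p of 0.0556 over the 28 tests. The ratio of mt-Nd6 to the other mRNAs differed little, by 0.03 on the log2 scale between MOV control and sham control (exact permutation p = 0.722) and by 0.13 between MOV mimic and sham mimic (exact permutation p = 0.381).

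The methods describe both viruses in opposite legs of a mouse, and the share was therefore also compared between legs of equal replicate number. After sham surgery, mimic minus control was 1.57, -0.869, 5.19, 2.76 and -1.49 points for numbers 1 to 5 (mean 1.43 ± 2.73, SD, n = 5), with mimic higher in 3 of 5. After MOV it was 1.19, 0.732, 0.0110, 2.84 and 6.28 points (mean 2.21 ± 2.50, SD, n = 5), with mimic higher in 5 of 5. The exact sign-flip test gave p = 0.312 for sham and p = 0.0625 for MOV, the latter being the smallest that 5 pairs allow.

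In sham pairs 13, 3, 12, 12 and 4 of the 13 mRNAs were higher in mimic, and in MOV pairs 11, 7, 9, 13 and 13. The mean absolute difference between a control and a mimic leg was 2.38 points for equal and 2.17 for unequal numbers in sham (medians 1.57 and 1.72), and 2.21 and 2.32 in MOV (medians 1.19 and 1.36). Over the 10 numbers, control and mimic shares relative to their group means had r = 0.0140 (permutation p = 0.949) and rho = -0.0182 (permutation p = 0.971), with an adjusted p of 0.949 over 2 relations. Without sham 3 and 4, the pairs farthest from the median in control, r was 0.311 (permutation p = 0.478).

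The nuclear genes for the same respiratory complexes give a reference for the mitochondrial mRNAs. Of 76 nuclear genes for subunits of complexes I, III, IV and V, 75 were tested and none was called by edgeR, which called at most 1 gene in any comparison. DESeq2 called 7 of the 75 lower in MOV control against sham control, beside 3.48% of all genes, and 4 of the 75 lower in MOV mimic against sham mimic, beside 0.637%, and none in the others. In MOV control against sham control 71 of 75 had a negative log2 fold change with a median of -0.35, beside -0.73 for the mitochondrial mRNAs. In MOV mimic against sham mimic it was 66 of 75 with a median of -0.25, beside -0.57.

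For the mimic the signs parted, with no gene of either set called by edgeR or DESeq2 in the fits without a replicate block. In sham mimic against sham control 73 of 75 nuclear genes had a negative log2 fold change (median -0.17), where 12 of 13 mitochondrial mRNAs had a positive one. After MOV 60 of 75 nuclear genes were negative (median -0.07), where 12 of 12 mitochondrial mRNAs were positive. These signs come from the same libraries and are not independent. The share of counts on the nuclear genes differed by -0.239 points after sham (exact permutation p = 0.119, adjusted p = 0.159). After MOV it differed by -0.0854 points (exact permutation p = 0.341, adjusted p = 0.390), so neither passed. Mitochondrial mRNA counts per 100 counts of these nuclear genes were 414, 410, 342, 376 and 456 in sham control and 563, 466, 541, 509 and 483 in sham mimic. Every sham mimic library was above every sham control library. After MOV they were 315, 400, 318, 254 and 341 in control and 385, 479, 347, 365 and 685 in mimic, which overlapped. This ratio was chosen after the values were seen, and sham mimic against sham control did not pass the exact permutation test after adjustment (p = 0.00794, adjusted p = 0.0635 over 8 tests).

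**Figure D5:**
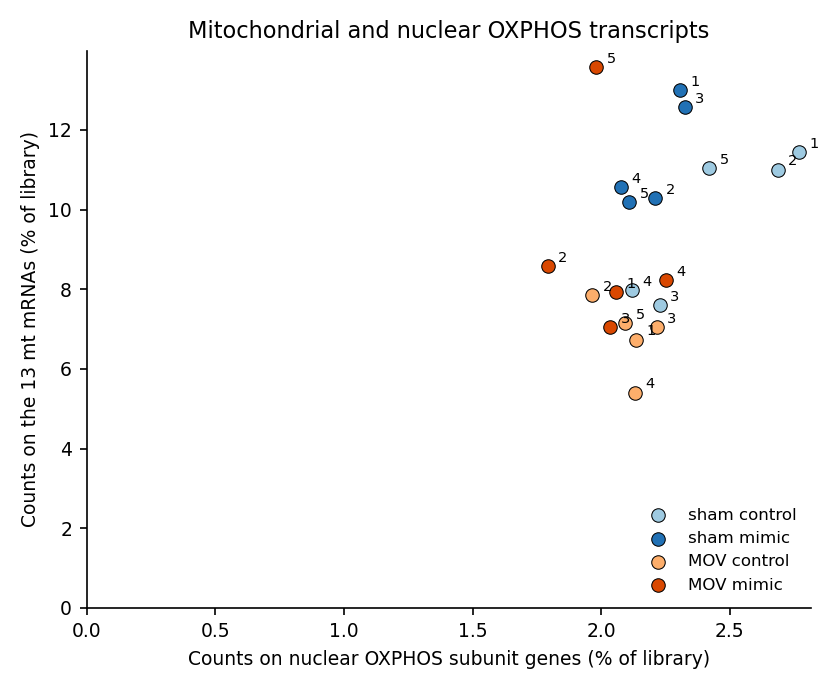
Percent of library counts on the 13 mitochondrial mRNAs against percent on 76 nuclear genes of complexes I, III, IV and V, 1 point per library with its replicate number, coloured by group. Both axes start at 0. MOV control spans 5.41% to 7.86% on the vertical axis and sham control 7.61% to 11.5%, and MOV mimic 5 stands alone at 13.6% mitochondrial mRNA.

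Among nuclear genes that act on the mitochondrial genome and its transcripts, edgeR and DESeq2 called none in any comparison, where edgeR called at most 1 gene of all and DESeq2 6.1% of genes in MOV control against sham control and 1.48% in MOV mimic against sham mimic, over 35 genes for transcription, RNA processing and DNA maintenance, 12 translation factors and 74 mitochondrial ribosomal protein genes tested. In MOV control against sham control their median log2 fold changes were -0.11, -0.28 and -0.12. Polrmt, the mitochondrial RNA polymerase, had -0.15 (SE 0.18), Tfam, which packages the genome and starts transcription, had -0.11 (SE 0.15), and Lrpprc, which stabilises mitochondrial mRNAs, had -0.36 (SE 0.15, edgeR adjusted p = 0.239). With the mimic the 3 genes had -0.20, -0.09 and -0.31 after MOV against sham.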

How the data were processed

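Raw read counts by Ensembl gene were deposited for 20 plantaris libraries, in 1 table for control and 1 for mimic, made from total RNA with the NEBNext Ultra II RNA kit. Per the labels and methods, the authors checked reads with FastQC 0.11.9, trimmed them with Trim Galore 0.6.10, which runs cutadapt 4.4, and had them aligned to GRCm38 with HISAT2 2.0.5 and counted with featureCounts 1.5.0-p3. The annotation release, strand setting, read length and treatment of multi-mapped reads are not given in the sources used here, and they affect genes with nuclear copies and overlapping genes most.

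Shares are percent of all gene counts in a library. Each comparison of 5 against 5 libraries was fitted on the whole table with edgeR 4.0.16 (TMM, filterByExpr, quasi-likelihood test, two-sided, Benjamini-Hochberg over all genes tested, threshold 0.05), in R 4.3.3, and with DESeq2 1.42.0 as an alternative. Shares were compared by two-sided exact permutation of libraries. Nuclear copies were found with BLAST 2.17.0 against NCBIM37. The edgeR and DESeq2 steps were tested on simulated data. All 13 protein-coding and 2 rRNA genes, and each tRNA gene that passed the filter in a comparison, were named. Members, gene lists and tests were chosen with earlier results of these data known. The methods, and not the labels, describe separate mice within a group, and p-values measure the spread between these libraries. Alternatives were another scaling, no filter, all 20 libraries in 1 fit, a replicate block and each library left out in turn.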

Additional observations from a re-analysis of the deposited data

Results flagged for a closer look

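Of 76 groups of 5 values tested over 19 measures (shares, and CPM of each mRNA and rRNA), 19 had a lowest or highest library that stood apart by Dixon's criterion, where chance gives about 1 in 20 groups. The measures come from the same libraries and some contain others. The flags are therefore not independent, and a single library can raise many of them. MOV mimic 5 accounted for 12 of them. Its mitochondrial share was 13.7% and its rRNA share 0.0542%, and its levels were 200.2 CPM for mt-Rnr1, 355 for mt-Rnr2, 23967 for mt-Nd1, 19319.6 for mt-Nd2, 46279 for mt-Co1, 221 for mt-Atp6, 32.2 for mt-Nd4l, 14637 for mt-Nd4, 8866 for mt-Nd5 and 20377 for mt-Cytb, each the highest of its group. MOV control 5 accounted for 4, as the highest of its group, with an rRNA share of 0.229%, 1133 CPM for mt-Rnr1, 1376 for mt-Rnr2 and 9179 for mt-Nd4. The others were the tRNA share of MOV control 4, the lowest of its group at 0.0148%, mt-Co2 in sham mimic 1 at 498 CPM and mt-Co3 in MOV control 3 at 189 CPM, each the highest of its group.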

How the results depend on the processing

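The direction of the share difference between MOV and sham held under every alternative run, and its call did not. For MOV control against sham control the difference was -2.98 points with mRNAs only and -3.02 with mRNAs over counts without rRNA and tRNA. It was -2.96 with mRNAs only and without the 6 of them that have nuclear copies, an alternative chosen after seeing the data. Each had an adjusted p of 0.0794 (exact permutation tests). Leaving out 1 library gave -3.93 to -2.93 for MOV control against sham control, -3.70 to -2.05 for MOV mimic against sham mimic, 1.07 to 2.72 for the mimic after MOV, 0.843 to 1.85 after sham and -0.239 to 1.72 for the interaction, which was -0.239 without the MOV libraries numbered 5 (a left-out library takes its equal-numbered partner with it there). The correlation between legs ranged from -0.161 to 0.261 on leaving out a number and was negative, -0.161 and -0.144, without number 1 or 4.

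Genes called in MOV control against sham control numbered 1 in edgeR, 913 in DESeq2, 388 without a filter and 36 with all 20 libraries in 1 fit, and 0 to 426 on leaving out a library, with 426 without sham control 3 and 318 without MOV control 5. For MOV mimic against sham mimic they numbered 221 in DESeq2, 1 without a filter, 3 in the fit of 20 libraries and 0 to 101 on leaving out a library, with 101 without MOV mimic 5. For the mimic after MOV they numbered 3 in DESeq2 and 1 in the fit of 20 libraries, and for the interaction 1 in DESeq2. The cause of these differences was not tested. Of 476 fold changes of the 28 members in MOV control against sham control under alternatives, 471 kept their sign. The 5 that did not were of mt-Ti (0.05 with all libraries), at -0.01, -0.14, -0.07, -0.10 and -0.18 on leaving out 1 library each (range -0.18 to 0.42).

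Libraries of equal number correlated in their deviations from the group means by 0.0347 to 0.321 after MOV and by 0.0116 to 0.663 after sham over 16166 genes, and each MOV library, and 3 of 5 sham libraries, correlated best with its own number. Not every pair was above 0.1, and the labels do not say which libraries came from one mouse. The numbers were therefore not treated as pairs in the main tests of genes, which leave out a pairing of legs that the methods describe. With the replicate block edgeR called 1 gene in MOV control against sham control, and DESeq2 with the replicate block, added after seeing the data, called 722, 116 for MOV mimic against sham mimic, 127 for the mimic after MOV and 5 for the interaction. MOV and sham libraries of equal number came from different mice and share only a number (mean correlation -0.0793 for control), so a replicate block there is no pairing. For completeness, the replicate block as an exact sign-flip test of the share gave -3.34 points with an adjusted p of 0.156 for MOV control against sham control, a test that cannot go below p = 0.0625.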
